A study of Mus musculus with 12 samples.

Results

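The cytosolic ribosomal proteins are the protein part of the ribosome that translates messenger RNA outside mitochondria. Here they are the 89 genes, of 54446 in the deposited count table, whose symbols are built as Rpl or Rps and a number, or are Rplp0, Rplp1, Rplp2 or Rpsa, with named pseudogenes left out. By symbol, 53 belong to the large subunit and 36 to the small one. In these 89, 77 are the usual ribosomal components and 12 are paralogs or retrocopies, such as Rpl22l1 and Rps27l. Only symbols with -ps were left out as pseudogenes. Of these 12, Rpl6l, Rpl32l, Rps3a2, Rps3a3 and Rps12l1 are annotated as processed pseudogenes, and Rps4l as a transcribed one. The RNA came from mouse macrophages derived from the marrow of femurs and tibias, grown in RPMI 1640 medium with macrophage colony-stimulating factor (M-CSF). All mice carried loxP-flanked alleles of Nlrc3, an NLR family protein. In mice labelled KO, Cre under the LysM promoter, active in macrophages and other myeloid cells, was to delete Nlrc3, and mice labelled WT had no Cre. Each genotype was kept in medium alone or given LPS (lipopolysaccharide, from bacterial outer membranes) for 12 h, which gave 4 groups of 3 libraries. Ages are not given. Whether replicates were separate animals is not stated either, so a p-value here reflects the spread among these libraries, part of which may be technical.

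The labels and the targeted gene went against each other. Nlrc3 was at 9.89, 13.6 and 10.4 CPM (counts per 1000000 counts of the library) in WT medium, 0.796, 4.39 and 1.40 in WT LPS, 0.996, 0.850 and 0.876 in labelled KO medium, and 15.6, 8.295 and 6.04 in labelled KO LPS. It was thus high in both WT medium and labelled KO LPS. Nos2, which LPS induces in macrophages, was at 1148 to 2717 CPM in the libraries labelled KO medium and at 0.689 to 5.43 CPM in those labelled KO LPS. Directions drawn from the libraries labelled KO are therefore those of the labels only. Library totals ran from 13082947 to 20960505 counts, of which 247485 to 910291 fell on the family. All 8 macrophage markers were counted, at 10062 to 35761 CPM summed. The summed levels were 898 to 6998 CPM for 11 neutrophil markers, 4.20 to 87.1 for 8 B cell markers, 0.708 to 18.9 for 7 T and NK cell markers, 50.5 to 426 for 9 stromal markers and 145 to 786 for 8 erythroid and megakaryocyte markers. None of these markers was at 0 in every library. Labelled KO LPS replicates 2 and 3 stood apart, with B cell markers at 85.5 and 87.1 CPM against at most 13.2 in every other library, and neutrophil markers at 5738 and 6998. Macrophage markers were at 32183 to 35761 CPM in WT medium, 12620 to 19337 in WT LPS, 10062 to 12947 in labelled KO medium and 21231 to 34432 in labelled KO LPS.

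A ribosome holds a single copy of nearly every ribosomal protein, and the P-stalk proteins Rplp1 and Rplp2 are the main exception. Their messenger RNAs begin with a stretch of pyrimidines, the terminal oligopyrimidine (TOP) motif, through which the kinase mTOR and the binding protein Larp1 adjust their translation together. In macrophages, LPS is known to change translation as well as transcription, so RNA levels are only one layer of ribosome supply.

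The sequence around the annotated start was searched for runs of pyrimidines. RefSeq windows of the build GRCm38, from 250 bases before to 50 bases after a start, were matched by symbol for 64 of the 89 members. A run of at least 8 C or T on the sense strand, 50 bases before to 50 after the start, was found in 51 of 64 (79.7%), against 35.6% of 26961 other genes. The other 13 members held no run of that length in this stretch. A run that crosses an edge of this stretch was counted only by its part inside. The longest run began anywhere from 50 bases before to 41 bases after the annotated start, so it need not be the TOP start itself. The median longest run was 10 bases in members and 7 in other genes. TTCCG on either strand of the 300 bases, which can overlap such a run, was in 85.9% of members and 30.2% of other genes, and CTTCCG, which contains it, in 65.6% and 17.1%. TATAAA, the TATA box core, was in 10.9% and 14.2%. A match is a description of these letters, not a binding site. The windows below, of 30 bases each, belong to members that the results turn on. Their longest C or T run inside the searched stretch is in capitals. In Rps24 it began 39 bases after the annotated start and reached the end of the sequence. In Rpsa it was cut at the edge of the searched stretch, 50 bases before the start:
Rps24 (chr14:24490698-24490727, plus strand): ttggtcggcagtgagcggTCCTCTTTTCCT
Rps9 (chr7:3704024-3704053, plus strand): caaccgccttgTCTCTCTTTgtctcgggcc
Rplp2 (chr7:141447636-141447665, plus strand): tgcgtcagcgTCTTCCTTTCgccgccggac
Rpl7a (chr2:26910788-26910817, plus strand): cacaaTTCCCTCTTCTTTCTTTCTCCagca
Rpl15 (chr14:18270968-18270997, minus strand): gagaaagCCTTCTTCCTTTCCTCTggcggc
Rps6 (chr4:86857349-86857378, minus strand): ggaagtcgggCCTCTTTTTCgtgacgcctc
Rplp0 (chr5:115559466-115559495, plus strand): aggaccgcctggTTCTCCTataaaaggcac
Rpsa (chr9:120127704-120127733, plus strand): gcggaagttctcCCTTTTTgcttagcctgc
The run was 21 bases in Rpl7a and 17 in Rpl15, 2 genes of the large subunit. It was 7 bases in Rplp0, the scaffold of the P-stalk. In Rpsa, a small-subunit protein also known as the laminin receptor precursor, 7 bases lay inside the searched stretch. The Rpsa run is longer than that, since the lower-case letters directly ahead of the capitals are also C or T.

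The family as a whole varied widely between libraries of the same group. Its share of all counts was 2.78, 6.96 and 2.95% in WT medium replicates 1, 2 and 3, and 3.12, 1.18 and 2.01% in WT LPS. It was 3.30, 5.08 and 1.98% in labelled KO medium and 4.89, 3.83 and 3.78% in labelled KO LPS. WT medium replicate 2 was the highest and WT LPS replicate 2 the lowest, and the other 10 libraries lay between them. The highest share was 5.89 times the lowest, and within WT medium, WT LPS and labelled KO medium the libraries differed by 2.5 to 2.64 times. Counting error was small, since the 95% Wilson interval of the lowest share was 1.18 to 1.19%. Such intervals cover counting error only. In bulk samples, fewer cells of a type and less RNA per cell cannot be told apart.

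**Figure D1:**
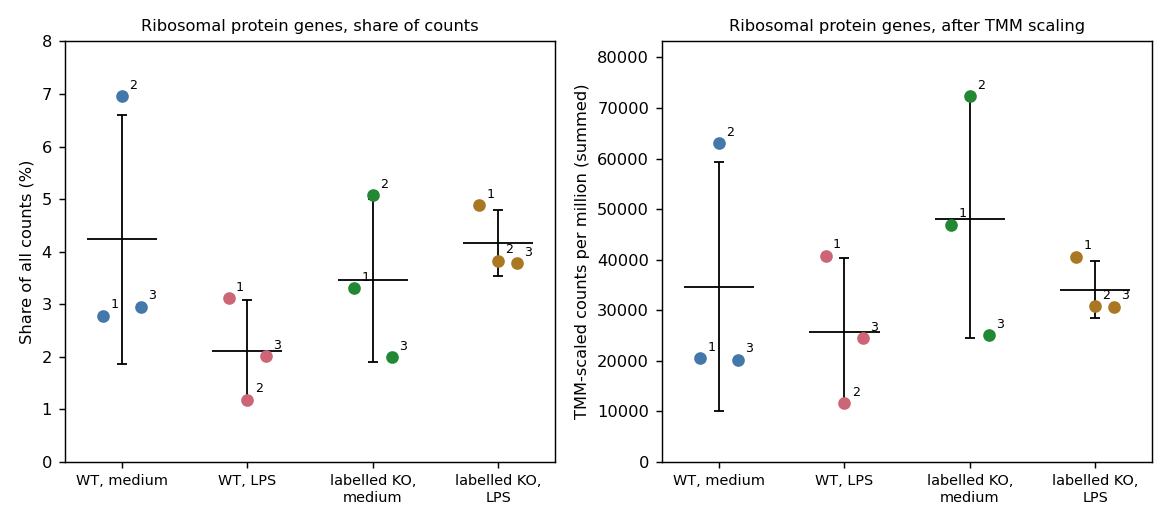
Share of all counts in ribosomal protein genes (left, %) and their summed TMM-scaled CPM (right) in the 12 libraries; points are libraries with their replicate number, horizontal lines group means and bars 1 SD (n = 3). WT medium replicate 2 stood at 6.96% against 2.78 and 2.95% in the other WT medium libraries.

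By group the share was 4.23 ± 2.36% (SD, n = 3) in WT medium, 2.10 ± 0.973% in WT LPS, 3.46 ± 1.55% in labelled KO medium and 4.17 ± 0.627% in labelled KO LPS. Only labelled KO LPS against WT LPS was without overlap among the 4 main comparisons, with a difference of 2.06 percentage points and an exact two-sided permutation p of 0.1, the smallest that 3 against 3 can give. The high B cell and neutrophil markers fell in this labelled KO LPS group, and their part in the result was not tested. The exact two-sided p was 0.3 for LPS against medium in WT, 0.5 for the same in labelled KO, and 0.7 for labelled KO against WT in medium. Differences between groups made up 41.1% of the variance of the log2 share. Libraries were also scaled by TMM factors, which adjust for a few abundant genes taking up counts and ran from 0.702 to 1.46. On that scale the family summed to 34617 ± 24654, 25645 ± 14612, 48109 ± 23648 and 34043 ± 5671 CPM in the same order of groups. All 4 main comparisons overlapped on that scale (exact permutation p 0.4 to 0.7), and on it labelled KO medium stood above both labelled KO LPS and WT medium, the reverse of the unscaled share.

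The members moved together from library to library. Each of the 86 members that had enough counts to be tested was correlated with the summed CPM of the rest of the family, on log2(CPM + 0.5) over the 12 libraries. Pearson's r had a median of 0.979 and was above 0.9 for 69 of 86 members. Among 13687 other genes the median r with the family was 0.061, and 2.10% were above 0.9. The 12 points share library depth and any common scaling, so these values are a description. Of the 74 well-counted usual components, 68 were highest in WT medium replicate 2 and 73 lowest in WT LPS replicate 2. Members that followed the family least were Rpl39l (r 0.048), a paralog known from male germ cells, Rpl24 (0.453), Rps10 (0.461), Rpl7l1 (0.467), Rpl15 (0.520) and Rpl7a (0.643). Rpl24, Rps10 and Rpl39l had very few counts.

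**Figure D2:**
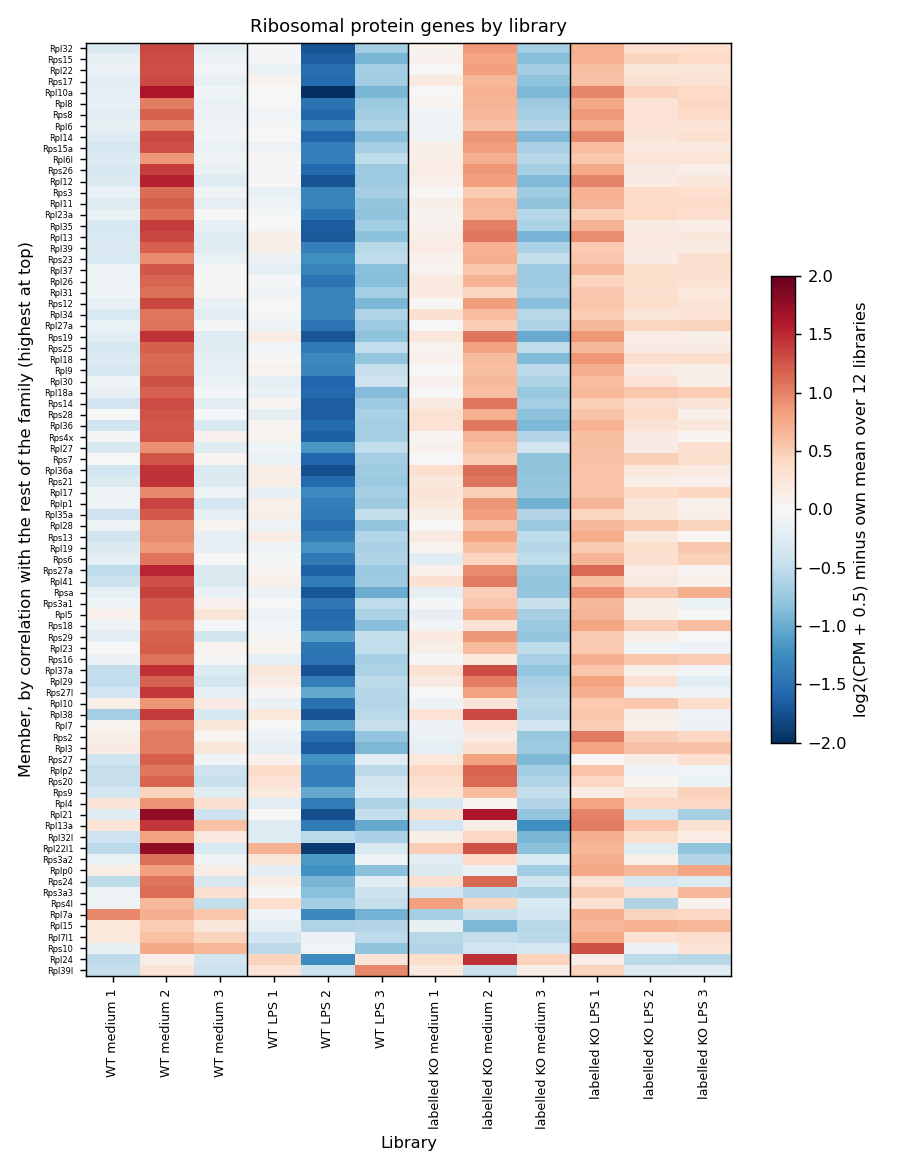
The tested members reported here (rows, from the highest to the lowest correlation with the rest of the family) in each library (columns), as log2(CPM + 0.5) minus the gene's own mean over the 12 libraries. Columns are nearly uniform from top to bottom, most of all WT medium 2 (high) and WT LPS 2 (low), while the lowest rows, from Rpl7a to Rpl39l, follow other patterns.

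Levels of the members spanned a wide range per length. In FPKM, the authors' counts scaled by gene length and library total, the mean over 12 libraries was highest for Rplp1, at 1460 ± 785 (SD over the 12 libraries). Rplp1 ranked first in 12 of 12 libraries. Rps15 (779 ± 407), Rpl41 (756 ± 407), Rps3a1 (724 ± 333), Rps29 (654 ± 311) and Rpl36 (652 ± 348) came next. Their order changed between libraries, with Rps15 ranking from 2 to 6 and Rps29 from 2 to 11, so the order of their means did not hold in every library. The SDs also hold the family's common rise and fall and do not measure differences between members. Among 74 usual components the median was 209.6 FPKM and the lowest Rpl21, at 45.1. The FPKM values divide by all exonic bases of a gene, 6256 for Rps24 and 499 for Rplp1. By counts per kilobase of coding sequence, chosen after the data were seen, 3 of the 6 highest members stayed among the 6 highest. Rpl41, which encodes the shortest ribosomal protein, was first on that scale at 11768 CPM per kilobase, followed by Rps24 (2944), Rps29 (2700) and Rplp1 (2130). Spearman's rho between the scales was 0.54 across the 77 usual components, and genes are not independent replicates.

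**Figure D3:**
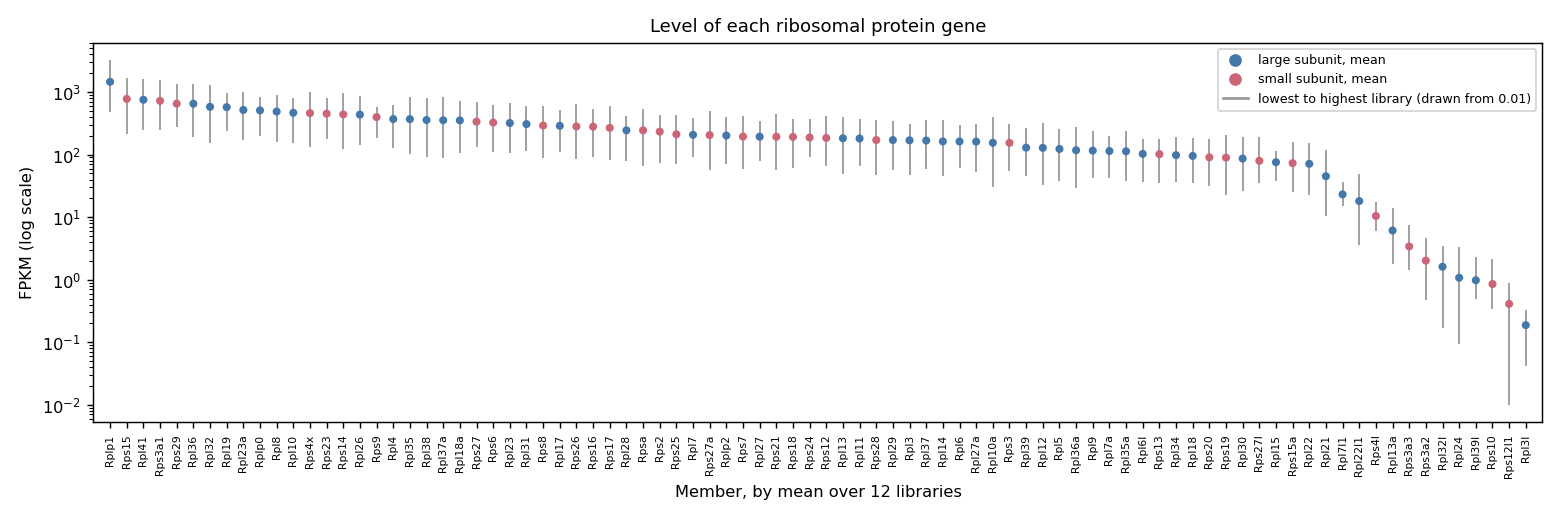
Mean FPKM (log axis) of the members reported here over the 12 libraries, by rank, with a line from the lowest to the highest library (values under 0.01 are drawn at 0.01); blue marks the large and red the small subunit, and Rpl10l, at 0 counts, is not drawn. Rplp1 stands above the rest, a long plateau follows, and most paralogs and retrocopies form the low end with Rpl13a, Rpl24 and Rps10. The copies Rpl6l and Rps27l stand higher, above Rpl21.

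Genes that every ribosome needs were nearly uncounted at 3 places. Rpl24 (chr16:55966275-55971435) had 208 counts in all 12 libraries, and Rps10 (chr17:27630418-27636669) had 390. Rpl13a (chr7:45125558-45128761), whose protein is known to leave the ribosome and silence inflammatory messages in interferon-treated myeloid cells, had 2525 counts, at 3.82 to 30.04 CPM. The median of the other 74 usual components was 451.7 CPM. These were the 3 members with over 50% of their transcript bases covered by another gene on the same strand in the GENCODE M21 annotation. Gm28037 covered 71.5% of Rpl24, Gm45713 covered 59.3% of Rpl13a, and the readthrough gene RPS10-NUDT3 covered 53.55% of Rps10. All 3 overlapping genes were at 0 counts in every library. The counting tool is not given in the sources used here, and the part of the overlap in these low values was not tested. Named pseudogenes of Rps10 held 14916 counts, 13257 of them on Rps10-ps2, which stood at 26.3 to 126 CPM. Values of Rpl24, Rps10 and Rpl13a are uncertain for these reasons.

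Named pseudogenes may share reads with other members too. Of the 89 members, 61 had at least 1 named pseudogene in the table, 298 rows in all, which held 0.0258 to 0.149% of a library's counts. After Rps10, the pseudogene counts were largest relative to their gene for Rpl17 (35.8%), Rpl14 (30.2%), Rps27a (24.0%) and Rpl21 (20.5%). Reads of these pairs may be split between gene and copy. In 30 members the introns or exons also held snoRNA genes, 58 in all, and Rpl4 held the most, 5. Whether counting used strand is not given in the sources used here, and members with an antisense neighbour over much of their length, such as Rpl35 (68.3%), Rpl30 (57.5%) and Rpl23a (55.4%), are uncertain for that reason.

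The copies set against their partners by ratio were below them in every library. No ratio was taken for the retrocopy Rpl6l, which had 17492 counts over 871 exonic bases, against 99577 over 3140 for Rpl6. Rps27l, a p53-responsive copy of Rps27, was at 17.3 to 37.7% of the FPKM of Rps27. Rpl22l1 was at 10.9 to 40.5% of Rpl22, a protein needed in T cell development. Rpl7l1 was at 6.54 to 21.7% of Rpl7, Rps4l at 1.35 to 4.44% of Rps4x, and Rpl39l at 0.27 to 2.92% of Rpl39. Rpl3l, the muscle paralog of Rpl3, had 62 counts in all. Rpl10l, the testis retrocopy of Rpl10, had 0 counts in every library, which allows up to 0.143 to 0.229 CPM depending on the library, the level of 3 counts. For Rpl22l1 the ratio by library was 16.9, 32.0 and 19.1% in WT medium, 40.5, 16.2 and 29.3% in WT LPS, 32.1, 31.3 and 20.7% in labelled KO medium and 23.9, 16.1 and 10.9% in labelled KO LPS. The groups of this ratio overlapped between WT medium and WT LPS, and between WT LPS and labelled KO LPS.

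LPS against medium in WT left every tested member short of the threshold. The quasi-likelihood test of edgeR, Benjamini-Hochberg adjusted over 13773 genes, called 0 of 86 members at an adjusted p under 0.05, whereas it called 18.3% of all genes. Of the members 1 had an unadjusted p under 0.05, and DESeq2 called 0. The log2 fold was below 0 for 80 of 86 members, with a median of -0.49 against -0.06 over all genes, of which 52.5% were below 0. The members' median standard error was 0.57, so a typical 95% interval reached 1.24 to either side. Because the members share their libraries, 80 folds of 1 sign are not 80 observations. Without WT medium replicate 2 the median was 0.29, and without WT LPS replicate 1 it was -1.03 with 1 member called. The share of all genes called in that smaller fit is not given here.

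The 3 members of smallest p were Rpl7a, Rpl13a and Rpl39l. Rpl7a, in the core of the large subunit, was at 261, 271 and 183 TMM-scaled CPM in WT medium and at 227, 73.2 and 115 in WT LPS. WT LPS replicate 1 lay within the medium range, so the groups overlapped, and the log2 difference was -0.79 ± 0.36 (SE, edgeR adjusted p = 0.155). Rpl13a had a log2 difference of -1.16 ± 0.53 (edgeR adjusted p = 0.158) and Rpl39l of 1.48 ± 0.71 (edgeR adjusted p = 0.174). Rps6, the S6 kinase substrate, was at 309, 896 and 324 TMM-scaled CPM in WT medium and at 598, 174 and 380 in WT LPS. Its libraries were interleaved. TMM-scaled CPM were without overlap for 0 members, where 33.9% of all genes were without overlap in either direction.

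In the libraries labelled KO, LPS against medium likewise called 0 of 86 members, against 30.4% of all genes. Unadjusted p was under 0.05 for 3 members, and DESeq2 called 1, Rpl24. Folds were below 0 for 74 of 86 members, with a median of -0.54 against 0.04 over all genes. Rpl24 had the smallest p, with 1.89, 4.94 and 1.87 TMM-scaled CPM in labelled KO medium and 0.89, 0.40 and 0.39 with LPS. The groups did not overlap, but the values rest on 208 counts over all libraries (log2 difference -2.37 ± 0.85, edgeR adjusted p = 0.0524). Rps4l, a copy of Rps4x annotated as a transcribed pseudogene, was second at -1.20 ± 0.52 (edgeR adjusted p = 0.0988). Rps24, a small-subunit protein mutated in Diamond-Blackfan anemia, was at 1908, 3363 and 1021 TMM-scaled CPM in medium and at 1093, 682 and 723 with LPS (log2 difference -1.33 ± 0.59, edgeR adjusted p = 0.107). Medium replicate 3 lay below LPS replicate 1. TMM-scaled CPM were without overlap for 4 members, against 45.8% of all genes. Of these, Rpl24 was lower with LPS and Rpl15, Rpl7a and the retrocopy Rps3a3 were higher.

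Labelled KO against WT under LPS also called 0 of 86 members, against 24.1% of all genes, with 0 members at an unadjusted p under 0.05 and 0 by DESeq2. Folds were above 0 for 76 of 86 members, with a median of 0.42 against 0.06 over all genes. Rplp0 had the smallest p. It was at 881, 327 and 523 TMM-scaled CPM in WT LPS and at 1089, 983 and 1084 in labelled KO LPS, without overlap (log2 difference 0.87 ± 0.40, edgeR adjusted p = 0.135). Rpl15, of the large subunit, was at 199, 114 and 143 in WT LPS and at 231, 229 and 225 in labelled KO LPS, also without overlap (0.59 ± 0.30, edgeR adjusted p = 0.169). TMM-scaled CPM were without overlap for 6 members, among them Rplp0, Rpl15, Rpl3, Rpl32l and Rps16, all higher in labelled KO, against 38.0% of all genes in either direction.

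In medium, labelled KO against WT called 0 of 86 members, against 26.3% of all genes. Of the members 1 had an unadjusted p under 0.05, and DESeq2 called 1, again Rpl24 (log2 difference 2.32 ± 0.85, edgeR adjusted p = 0.0633). Folds were above 0 for 80 of 86 members, with a median of 0.46 against -0.02 over all genes. Rps9, an early-binding protein of the small subunit, was at 549, 1198 and 552 TMM-scaled CPM in WT medium and at 1652, 2112 and 869 in labelled KO medium. WT replicate 2 lay above labelled KO replicate 3 (log2 difference 1.01 ± 0.47, edgeR adjusted p = 0.130). Rps4l was at 1.09 ± 0.52 (edgeR adjusted p = 0.140). Only Rpl24 was without overlap on TMM-scaled CPM, 1 of 86 members against 42.6% of all genes. Without WT medium replicate 2, the library with the highest family share, 11 members were called, all higher in labelled KO, and the median was 1.24. The 26.3% belongs to the fit of all 12 libraries. The share of all genes called in the smaller fit is not given here, so the 11 cannot be set against it.

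**Figure D4:**
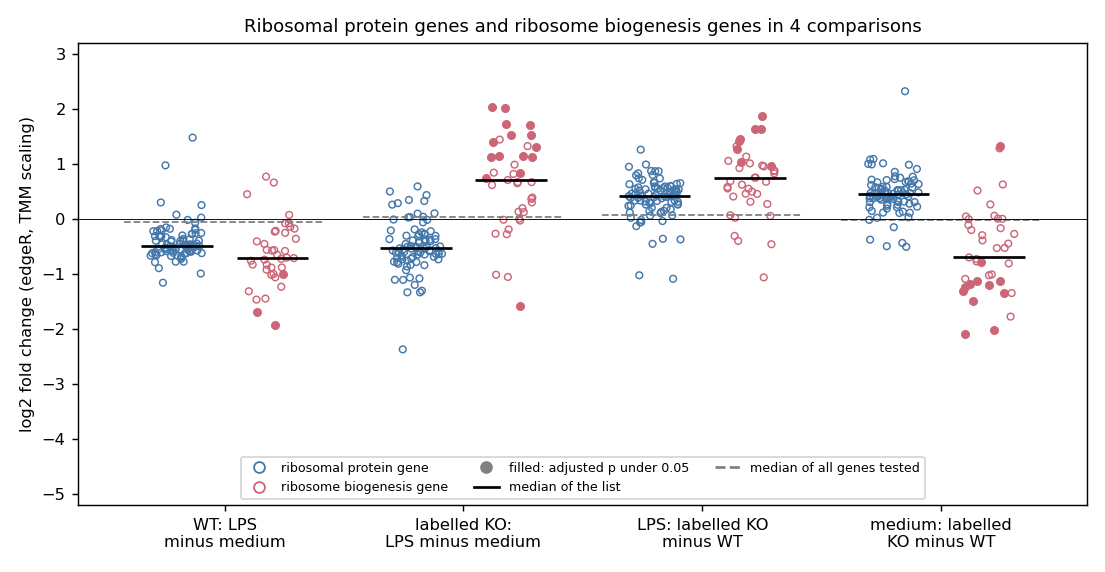
log2 fold change (edgeR, TMM scaling) of each tested ribosomal protein gene (blue, 86) and each tested ribosome biogenesis gene (red, 39) in the 4 main comparisons; filled points passed an adjusted p under 0.05, solid lines are list medians and dashed lines the median of all genes. No blue point is filled, while 3, 15, 8 and 12 red points are filled in the order shown.

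The LPS effect differed between the labelled genotypes for 1 of 86 members, where 41.1% of all genes were called for this difference. That member was Rpl24, with a log2 difference of effects of -3.34 ± 1.20 (edgeR adjusted p = 0.0415). It was at 0.38, 0.97 and 0.42 TMM-scaled CPM in WT medium and at 1.91, 0.09 and 1.49 in WT LPS. The call ended in 9 of the 12 fits that each left out 1 library, and with library size alone as the scale. The median over members was -0.02 against 0.11 over all genes. The 4 main comparisons and this difference share libraries.

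The members' direction held across scalings only relative to other genes. With library size alone, the median of all genes itself moved, to -0.64, 0.78, 0.57 and -0.85 in the order LPS in WT, LPS in labelled KO, genotype under LPS and genotype in medium. On that scale 10 members were called lower, 5 higher, 15 higher and 5 lower, in the same order. The shares of all genes called on that scale are not given here, so these counts do not set the members against other genes. The median of members turned to 0.23 for LPS in labelled KO and to -0.31 for genotype in medium. Relative to the median of all genes, the members' medians were -0.44, -0.57, 0.36 and 0.48 with TMM and -0.43, -0.55, 0.43 and 0.53 with library size alone. A scaling moves all genes of a comparison by about the same amount, so this likeness is no separate support. Over all settings, with each library left out among them, the relative medians ran from -0.92 to 0.28, -0.92 to -0.20, 0.015 to 0.82 and 0.068 to 1.26.

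A pair of comparisons set groups side by side that were alike in Nlrc3 and Nos2. Between labelled KO medium and WT LPS, both low in Nlrc3 and high in Nos2, edgeR called 0.0% of all genes and 0 of 86 members, with 0 members at an unadjusted p under 0.05 and 0 by DESeq2. There the log2 fold was above 0 for 85 of 86 members, with a median of 0.91, and 96.4% of all genes had a lower fold than that median. The smallest p belonged to Rps28, at 1.10 ± 0.57 (edgeR adjusted p = 0.95). Between labelled KO LPS and WT medium, again 0.0% of genes and 0 of 86 members were called, with 0 at an unadjusted p under 0.05 and 0 by DESeq2, and the median was -0.05. TMM-scaled CPM were without overlap for 0 members in the first (5.47% of all genes) and 1 in the second (10.6%). Family TMM sums overlapped in both comparisons (exact permutation p 0.2 and 1.0).

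Within the family, the mix of members was examined as each member's share of the family's own counts, so that the common rise and fall drops out. The median standard error of a member fell to 0.34 in a fit with the family total as library size. That fit called 0 of 86 members in LPS against medium in WT (6.11% of all genes called), 0 in the same for labelled KO (6.04%), 0 for genotype under LPS (9.15%), 0 for genotype in medium (4.83%) and 0 for the difference of LPS effects (15.9%). Unadjusted p was under 0.05 for 1, 2, 2, 2 and 5 members in the same order. On this scale the percentages of all genes also carry the family's own rise and fall. DESeq2 was not run with it.

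Rps24 came nearest in the difference of LPS effects, at -1.40 ± 0.44 (edgeR adjusted p = 0.0505). It took 2.69, 3.24 and 2.88% of family counts in WT medium, 3.79, 4.80 and 4.61% in WT LPS, 4.07, 4.65 and 4.07% in labelled KO medium, and 2.69, 2.21 and 2.36% in labelled KO LPS. All libraries of WT LPS and labelled KO medium lay above all others. Differences between the 4 groups made up 90.3% of the variance of its log2 share, against a median of 44.3% over members. Rpl24 (-3.03 ± 0.98, edgeR adjusted p = 0.0538) and Rpl13a (1.59 ± 0.54, edgeR adjusted p = 0.0661) followed, both thinly counted.

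A few more members, named after their values were seen, took more of the family in WT LPS than in WT medium. Rps20, at the head of the small subunit, took 0.859, 1.06 and 0.819% of family counts in WT medium, 1.29, 1.08 and 1.28% in WT LPS, 1.26, 1.42 and 1.09% in labelled KO medium and 0.896, 0.879 and 0.799% in labelled KO LPS. All libraries of WT LPS and labelled KO medium again lay above the others, by a small margin over WT medium replicate 2. Rps9 took 2.67, 1.90 and 2.73% in WT medium and 3.52, 3.98 and 3.80% in WT LPS, also without overlap. Its labelled KO LPS libraries, at 2.17, 2.99 and 3.48%, reached the range of labelled KO medium, at 3.52, 2.92 and 3.47%. Rplp2, of the large subunit and the partner of Rplp1 in the P-stalk, took 0.965, 1.11 and 0.946% in WT medium and 1.53, 1.22 and 1.28% in WT LPS.

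Members of both subunits also took less of the family in WT LPS. Rpl3, next to the peptidyl transferase center, took 1.93, 1.40 and 1.90% of family counts in WT medium, 1.34, 1.27 and 1.28% in WT LPS, 1.28, 1.16 and 1.45% in labelled KO medium and 1.69, 1.87 and 1.89% in labelled KO LPS. WT medium replicate 2 lay below labelled KO medium replicate 3. Rpsa took 2.13, 2.46 and 2.05% in WT medium, 1.95, 1.74 and 1.66% in WT LPS, 1.78, 1.85 and 1.96% in labelled KO medium and 2.57, 2.51 and 2.91% in labelled KO LPS. WT medium and labelled KO LPS lay above the other groups in every library. Rplp0 took 3.07, 1.96 and 2.87% in WT medium and 2.16, 2.81 and 2.13% in WT LPS, with overlap.

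**Figure D5:**
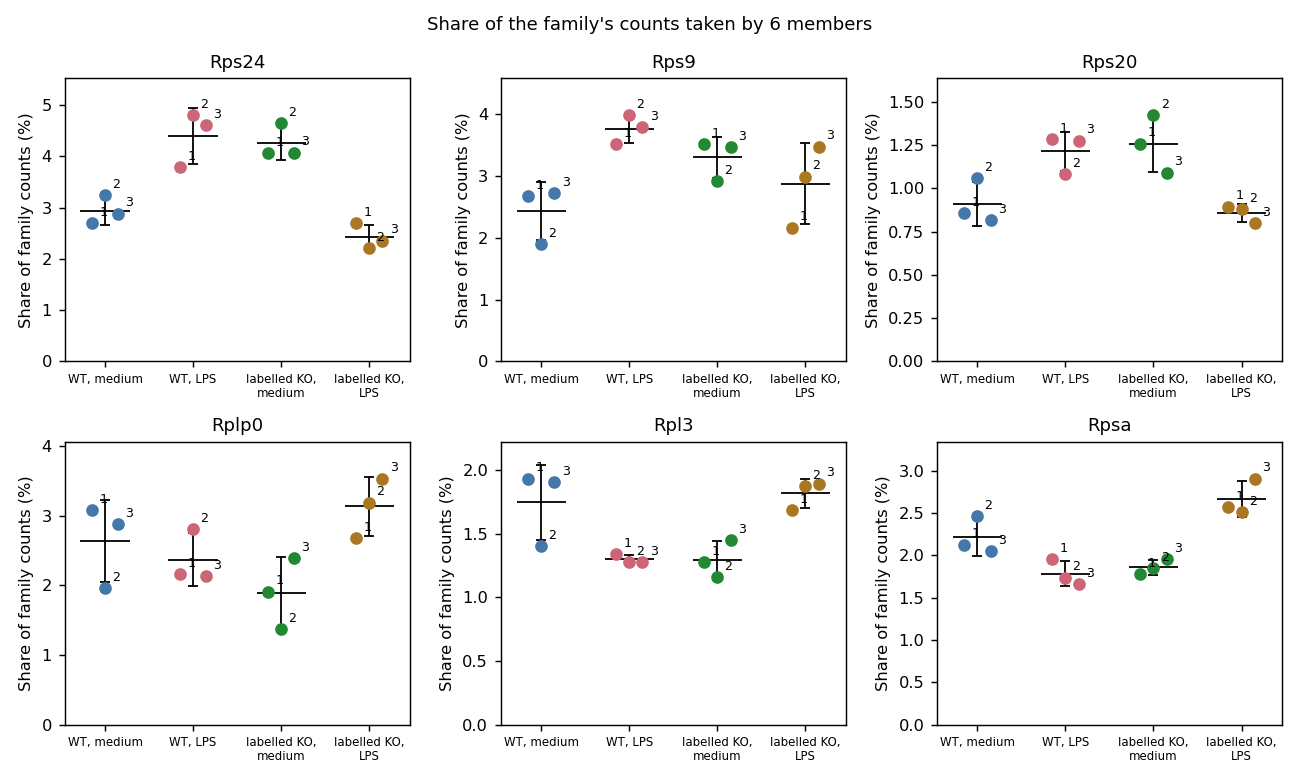
Share of the family's counts (%) taken by Rps24, Rps9, Rps20, Rplp0, Rpl3 and Rpsa in each library; points are libraries with their replicate number, lines group means and bars 1 SD (n = 3). Rps24 and Rps20 are high in WT LPS and labelled KO medium, Rpsa is high in the other groups, and Rplp0 overlaps between WT medium and WT LPS.

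Shares of family counts were without overlap for 15 members higher and 15 lower in LPS against medium in WT, where 18.2% of all genes, counted over the family total, were higher and 1.84% lower without overlap. In labelled KO the same comparison gave 19 higher (19.7% of all genes) and 12 lower (12.4%). Genotype under LPS gave 15 higher (2.5%) and 15 lower (26.7%), and genotype in medium gave 10 higher (9.46%) and 10 lower (12.0%). Shares within a family sum to a fixed total, so rises and falls are tied to each other. Counts of all genes over the family total also carry the family's own change. Their median log2 folds were 0.38, 0.31, -0.66 and -0.58 in the 4 comparisons above. Those of the members were -0.05, -0.05, 0.03 and -0.01. The percentages of all genes are therefore no baseline for the member counts, here or in the comparisons that follow. Between the groups alike in Nos2, 4 were higher (0.123%) and 3 lower (6.69%) for labelled KO medium against WT LPS, and 6 higher (0.929%) and 5 lower (1.49%) for labelled KO LPS against WT medium.

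Other genes of the pathway were given by lists. Their levels are in CPM without TMM scaling, whereas the log2 folds come from the fit with TMM scaling. A fold therefore need not match the ratio of the levels beside it. Of 5 ribosomal proteins that the symbol rule leaves out, 1 passed in 1 comparison. That was Rps27rt, a retrocopy of Rps27, higher in labelled KO under LPS (2.26 ± 0.62, edgeR adjusted p = 0.0213). It no longer passed when WT LPS replicate 1, WT LPS replicate 2 or labelled KO LPS replicate 2 was left out. Fau, which encodes Rps30 fused to a ubiquitin-like protein, stood at 190 to 1110 CPM, highest in WT medium replicate 2 and lowest in WT LPS replicate 2. Rack1, a scaffold on the small subunit, was at 624, 972 and 604 CPM in WT medium and at 517, 213 and 323 in WT LPS.

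Translation factors and other RNAs with a TOP start passed at shares below that of all genes in the 4 main comparisons, a description without a test. Of 24 tested, 2 fell with LPS in WT (8.33% against 18.3% of all genes), and 3 rose with LPS in labelled KO (12.5% against 30.4%). For genotype, 4 were higher in labelled KO under LPS (16.7% against 24.1%), and 1 was higher and 3 lower in medium (16.7% against 26.3%). Eef2, which moves the ribosome along the message, was at 1620 ± 471 CPM in WT medium, 570 ± 113 in WT LPS, 571 ± 28.9 in labelled KO medium and 2371 ± 902 in labelled KO LPS (SD, n = 3). It rose by 1.52 ± 0.34 in labelled KO against WT under LPS (log2, edgeR adjusted p = 0.00845). For the difference of LPS effects 5 of the 24 passed, all above 0 (20.8% against 41.1% of all genes). Among them, Eif4b, a helper of the initiation helicase, had a log2 difference of LPS effects of 2.82 ± 0.52 (edgeR adjusted p = 0.00114), and the snoRNA host gene Snhg12 of 3.31 ± 0.57 (edgeR adjusted p = 0.000765). These 3 calls held in each fit that left out 1 library. The list's counts did not, falling to 0 for LPS in WT without WT LPS replicate 1 to 1 for genotype under LPS without WT LPS replicate 3, and to 1 for genotype in medium without WT medium replicate 1.

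Ribosome biogenesis genes, which make and assemble the subunits in the nucleolus, passed at shares on both sides of that of all genes. Of 39 tested, 3 fell with LPS in WT (7.69% against 18.3% of all genes), and 14 rose and 1 fell with LPS in labelled KO (38.5% against 30.4%). By genotype, 8 were higher in labelled KO under LPS (20.5% against 24.1%), and 1 was higher and 11 lower in medium (30.8% against 26.3%). With TMM scaling the median log2 folds were -0.70, 0.71, 0.75 and -0.70, against -0.49, -0.54, 0.42 and 0.46 for the ribosomal proteins in the same comparisons. On this scale the lists had medians of opposite sign for LPS in labelled KO and for genotype in medium, and the difference between lists was not tested. With library size alone the ribosomal protein medians were 0.23 and -0.31 there, so the sign of the ribosomal protein medians depends on the scaling. Utp20, of the small-subunit processome, was at 30.5 ± 4.05 CPM in WT medium, 6.27 ± 0.567 in WT LPS, 6.77 ± 1.67 in labelled KO medium and 24.5 ± 4.50 in labelled KO LPS. It fell by 1.68 ± 0.25 with LPS in WT (log2, edgeR adjusted p = 0.00103). For the difference of LPS effects, 18 of the 39 passed above 0 and 2 below it (51.3% against 41.1% of all genes). Among them, Wdr12, of the large-subunit PeBoW complex, had a log2 difference of LPS effects of 3.96 ± 0.62 (edgeR adjusted p = 0.000387). Bysl, needed to mature the small subunit, rose by 1.52 ± 0.30 with LPS in labelled KO (edgeR adjusted p = 0.00304). Without WT LPS replicate 3 the list's calls were 1 for LPS in WT and 1 for genotype under LPS, and without labelled KO medium replicate 1 they were 8 for LPS in labelled KO and 7 for genotype in medium.

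RNA polymerase I makes the ribosomal RNA. Polr1b, its second largest subunit, was at 13.6 ± 1.07 CPM in WT medium, 2.95 ± 1.30 in WT LPS, 1.62 ± 0.257 in labelled KO medium and 14.9 ± 1.22 in labelled KO LPS. It fell by 1.65 ± 0.29 with LPS in WT (log2, edgeR adjusted p = 0.00238), and rose by 2.47 ± 0.30 with LPS in labelled KO (edgeR adjusted p = 0.000213). Of 17 genes of the polymerase and its factors, 2 fell with LPS in WT (11.8% against 18.3% of all genes), and 2 rose and 2 fell with LPS in labelled KO (23.5% against 30.4%). By genotype, 3 were higher and 1 lower under LPS (23.5% against 24.1%), and 3 higher and 2 lower in medium (29.4% against 26.3%). Leaving out 1 library at a time gave 1 to 4 calls for LPS in WT (lowest without WT medium replicate 1), 1 to 4 for genotype under LPS (lowest without WT LPS replicate 3) and 2 to 5 for genotype in medium (lowest without WT medium replicate 1).

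With all 12 libraries, initiation factors and the eIF2 kinases passed at shares near or below that of all genes, likewise without a test. Of 27 tested, 2 rose and 2 fell with LPS in WT (14.8% against 18.3% of all genes), and 3 rose and 5 fell with LPS in labelled KO (29.6% against 30.4%). By genotype, 2 were higher and 2 lower under LPS (14.8% against 24.1%), and 3 higher and 3 lower in medium (22.2% against 26.3%). Eif2ak2, the kinase PKR that responds to double-stranded RNA, was at 87.5 ± 15.5 CPM in WT medium, 255 ± 47.7 in WT LPS, 226 ± 64.3 in labelled KO medium and 45.001 ± 18.2 in labelled KO LPS. It rose by 2.14 ± 0.31 with LPS in WT (log2, edgeR adjusted p = 0.000781). The list's calls reached 11 for LPS in labelled KO and 9 for genotype under LPS without labelled KO LPS replicate 1, and fell to 1 for genotype under LPS without WT LPS replicate 3.

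Regulators of TOP translation and growth passed at shares above that of all genes, again a description. Of 23 tested, 5 rose and 2 fell with LPS in WT (30.4% against 18.3% of all genes), and 9 rose and 5 fell with LPS in labelled KO (60.9% against 30.4%). By genotype, 6 were higher and 6 lower under LPS (52.2% against 24.1%), and 5 higher and 6 lower in medium (47.8% against 26.3%). Larp1, which binds the TOP start and holds such messages back, was at 152 ± 27.4 CPM in WT medium, 297 ± 47.9 in WT LPS, 346 ± 19.0 in labelled KO medium and 165 ± 15.9 in labelled KO LPS. With TMM scaling, which these levels lack, it was higher in labelled KO in medium by 2.02 ± 0.26 (log2, edgeR adjusted p = 0.000305). Deptor, an inhibitor of mTOR, was at 22.2 ± 10.9, 0.906 ± 0.347, 0.781 ± 0.307 and 14.7 ± 5.59 CPM in the same order of groups, and fell by 3.97 ± 0.49 with LPS in WT (edgeR adjusted p = 0.000276). Max, the partner of Myc, rose by 1.88 ± 0.27 with LPS in WT (edgeR adjusted p = 0.000695). In labelled KO medium against WT LPS and in labelled KO LPS against WT medium, no gene of these lists passed with all 12 libraries in the edgeR fit, as none of all genes did.

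Several members serve as reference genes in quantitative PCR. Over the 12 libraries the coefficient of variation of CPM was 44.1% for Rplp0, 47.0% for Rps18 and 60.3% for Rpl13a, and 34.0%, 44.1% and 52.2% after TMM scaling. It was 43.5% for Hprt and 49.8% for Actb before scaling and 26.3% and 70.0% after it. Rpl13a had only 2525 counts over all libraries, and its values are uncertain for the reasons given above. By library Rplp0 was at 855, 1363 and 848 CPM in WT medium, 674, 332 and 428 in WT LPS, 631, 695 and 474 in labelled KO medium and 1312, 1221 and 1334 in labelled KO LPS. The WT LPS libraries lay below all those of WT medium and labelled KO LPS on this unscaled level.

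Other library properties were set beside the family's share. Among protein-coding genes outside the family, those with transcripts under 1000 bases took 4.64 to 12.9% of counts and those of at least 4000 bases 16.4 to 30.2%. Over the 12 libraries the family's share had a Pearson r of 0.446 with the first (permutation p = 0.145, adjusted 0.217) and of -0.461 with the second (permutation p = 0.132, adjusted 0.217), with Spearman's rho of 0.413 (permutation p = 0.181, adjusted 0.271) and -0.566 (permutation p = 0.0594, adjusted 0.178). With mitochondrially encoded counts, r was 0.16 (permutation p = 0.624, adjusted 0.624) and rho 0.014 (permutation p = 0.974, adjusted 0.974). Leaving out the 2 libraries farthest from the median of the other property gave r of 0.398, -0.478 and 0.443. These were labelled KO medium replicates 1 and 2 for short transcripts, and WT medium replicates 1 and 3 for the others. WT medium replicate 2, the highest in family share, was kept each time. WT medium replicate 2 had 9.75% of counts on short transcripts against 4.66 and 4.64% in the other WT medium libraries, and the part of short transcripts in the family's share was not tested.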

How the data were processed

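Integer read counts, 1 value per gene and library, were deposited by the authors without normalization. The authors' deposited FPKM values match these counts after rescaling (largest deviation 0.00773%). Reads were placed on mm10, per the submitters' processing notes. The labels name both a TruSeq and a KAPA Stranded kit, while no aligner or counter is named (not given in the sources used here). Libraries held 13082947 to 20960505 counts. Models were fitted to the counts with edgeR 4.0.16 under R 4.3.3 (filterByExpr, TMM, glmQLFit and glmQLFTest, 1 mean per group over all 12 libraries), adjusted by Benjamini-Hochberg over 13773 genes and called under 0.05. Standard errors come from the F statistic. A second fit used the members' summed counts as library size. DESeq2 1.42.0 was an alternative, with other scalings, no filter, a replicate block, added pseudogene counts and each library left out. The fit was also run on simulated counts with genes drawn independently, which cannot speak for a family whose members move together. Single values were compared by exact permutation (scipy 1.17.1). The labels' groups were used. Of the members, 3 were not tested for low counts: Rpl10l, Rpl3l and Rps12l1. Named were a fixed set of members, the highest and lowest in FPKM, the called members or the 3 of smallest p per comparison, and up to 3 genes per list and comparison. Some genes are not reported here by name. Members and lists were chosen with earlier results of these data known. Positions are from GENCODE M21 (GRCm38), counted from 1, and promoter sequences from RefSeq (GRCm38).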

Additional observations from a re-analysis of the deposited data

Results flagged for a closer look

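The LPS effect on Rpl24 differed between the labelled genotypes by -3.34 on the log2 scale in the test of that difference. Its 208 counts over 12 libraries and the gene that covers most of its transcript are given above.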

How the results depend on the processing

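The shares of all genes called in the fits of this section are not given here, so its counts do not set the members against other genes. With library size alone as the scale, 10 members were called lower for LPS in WT, 5 higher for LPS in labelled KO, 15 higher for genotype under LPS, 5 lower for genotype in medium and 22 higher for the difference of LPS effects. The members' median was then -0.31 for genotype in medium and 1.32 for the difference. For LPS in labelled KO, DESeq2 size factors in edgeR gave 1 call, the DESeq2 Wald test 1 and no low-count filter 2, all lower. For genotype in medium, DESeq2 and no low-count filter gave 1 each, and for the difference no filter gave 2. Over TMM effective library sizes, chosen after seeing the data, the family's share differed by -1.41 points for LPS in labelled KO and 1.35 for genotype in medium, both reversed. Per coding length, 3 of the 6 highest members stayed.

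Leaving out 1 library at a time gave 0 to 1 calls for LPS in WT (1 without WT LPS replicate 1), 0 to 2 for LPS in labelled KO (2 without WT medium replicate 2), 0 to 1 for genotype under LPS (1 without WT LPS replicate 1), 0 to 11 for genotype in medium and 0 to 4 for the difference (both highest without WT medium replicate 2). Relative to the family total the counts were 0 to 1 for LPS in labelled KO and 0 to 3 for the difference, both highest without WT LPS replicate 2. The members' medians ranged from -1.03 to 0.29, -0.85 to -0.09, 0.07 to 0.91, -0.070 to 1.24 and -0.77 to 0.56 in the order given above. For labelled KO medium against WT LPS they ranged from 0.49 to 1.41, and for labelled KO LPS against WT medium from -0.33 to 0.73. Differences in the family's share ranged from -2.85 to -0.765 points for LPS in WT, -0.026 to 1.52 for LPS in labelled KO, 1.60 to 2.57 for genotype under LPS and -1.59 to 0.589 for genotype in medium. The causes were not tested.

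Libraries with the same replicate number had correlations of deviations from -0.63 to 0.567 over 18 pairs, so the numbers were not taken to pair samples. The library codes in the labels also share a number between WT medium replicate 2 and WT LPS replicate 1 (r = 0.593) and between WT medium replicate 3 and WT LPS replicate 2 (r = 0.456). The family share was 6.96 and 3.12% in the first of these pairs and 2.95 and 1.18% in the second. What the codes mean is not stated, so no fit used them. With the replicate block, 0 members were called for the difference of LPS effects, and the members' medians for the 4 main comparisons were -0.33, -0.44, 0.38 and 0.46. Rpl24, Rpl39l and Rps10, with few counts, are limited by depth.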
